A study of Homo sapiens with 6 samples.

Results

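A set of 8 long non-coding RNA genes was followed in H1 human embryonic stem cells: ESRG, LINC-ROR, LNCPRESS1, TUNAR, MIR302CHG, DANCR, NEAT1 and MALAT1. They were taken by symbol or alias from a list of names, a rule that itself uses no measured value, and all 8 were found among the 60499 Ensembl gene IDs of the deposited tables. All 8 passed the filter on low counts and were among the 17608 genes tested. H1 is an established human embryonic stem cell line. The cells were grown for 4 days in NutriStem medium, changed every day, on 1 of 2 coatings, and all other conditions described were shared. The first coating was laminin-521 alone (LN-521), an adhesion protein of the basement membrane, and the second was a mix of laminin-521 and laminin-221 (LN-521+LN-221, here the mixed coating). Each coating had 3 wells, sequenced as separate total RNA libraries. All wells held the same cell line, and the sources used here do not say that they came from separate cultures, so p-values measure the spread between wells, which may be technical. In these bulk samples, a change in the share of cells that express a gene and a change in RNA per cell cannot be told apart.

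Long non-coding RNAs are transcribed and often spliced like messenger RNAs but act as RNA. ESRG, LINC-ROR, LNCPRESS1 and TUNAR are enriched in human pluripotent cells, and MIR302CHG is the host transcript of the miR-302 cluster, among the most characteristic microRNAs of those cells. DANCR is known for holding progenitor cells back from differentiation. NEAT1 and MALAT1 stay in the nucleus. The long isoform of NEAT1 is the scaffold of paraspeckles, bodies of RNA and RNA-binding proteins that are small or absent in undifferentiated human embryonic stem cells, and MALAT1 gathers in nuclear speckles, which store splicing factors.

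Because MIR302CHG is known chiefly for the short regulatory RNAs cut from it, the 3p mature sequences that its transcript encodes are shown first, 5′ to 3′, as listed by RefSeq (GRCh38.p14). The 5p arms, also listed for all 5 hairpins, are not printed. The capitals mark the seed, bases 2 to 8, which selects the targets.
miR-302a-3p: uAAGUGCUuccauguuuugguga
miR-302b-3p: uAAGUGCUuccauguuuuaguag
miR-302c-3p: uAAGUGCUuccauguuucagugg
miR-302d-3p: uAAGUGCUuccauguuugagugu
miR-367-3p: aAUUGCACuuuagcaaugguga
The first 4 sequences share the seed AAGUGCU, which also occurs in miR-372-3p and miR-373-3p. The seed of miR-367-3p, AUUGCAC, is a different one and is shared with 5 other listed mature microRNAs, miR-25-3p among them.

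The libraries were of like depth. Totals ran from 20606494 to 26836727 estimated counts, and the biological coefficient of variation over all genes was 7.03%. A group of very abundant RNAs (7SL, 7SK, mitochondrial and ribosomal RNAs) took 4.98% to 6.46% of the counts but 30.7% to 37.9% of the TPM. TPM is corrected for transcript length and scaled to a fixed total, so the share taken by those short RNAs lowers the TPM of all other genes. Of 8 marker genes of stem cell identity, all were tested, and their summed expression was 9257 to 9444 CPM (counts scaled to the size of the library) on LN-521 and 9284 to 9509 CPM on the mixed coating. Markers of neural cells summed to 232 to 256 CPM and 245 to 266 CPM, those of mesoderm to 4.42 to 5.41 and 4.38 to 5.15 CPM, those of endoderm to 1.49 to 3.01 and 1.65 to 2.06 CPM, those of trophoblast to 21.7 to 26.5 and 21.7 to 25.0 CPM, and those of fibroblasts to 341 to 410 and 366 to 375 CPM. VGLL1, a trophoblast gene, and LUM, a fibroblast gene, had no counts in any library. By the edgeR test described below, 1 of the stem cell markers was higher and 3 were lower on the mixed coating, and 1 of 5 tested neural markers, DCX, was lower. DESeq2 called 4 of the stem cell markers, 0 neural markers and 1 of 3 tested fibroblast markers, COL1A1, which edgeR did not call. The part of these markers in the results was not tested.

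The 8 RNAs covered a wide range of levels. By the authors' TPM values, MALAT1 was the most abundant, with a median of 1372 TPM over the 6 libraries (873 to 1506). MIR302CHG followed at 847 TPM (807 to 1064), and MALAT1 was above it in 6 of 6 libraries. DANCR (102.5 TPM, 99.6 to 115) and ESRG (100.9 TPM, 89.2 to 133) could not be ordered: their ranges overlapped and DANCR was above ESRG in 2 of 6 libraries. TUNAR (35.9 TPM, 28.8 to 39.2), LNCPRESS1 (8.87 TPM, 5.97 to 10.6), NEAT1 (3.55 TPM, 2.94 to 3.80) and LINC-ROR (0.155 TPM, 0.03 to 0.25) followed, with no overlap between neighbours. In CPM, which takes no account of length, MALAT1 ranked first among the GENCODE long non-coding RNA genes tested and 6th among all genes. The level of MIR302CHG depends strongly on length. The ratio of its count to its TPM implied an effective length of only 157 ± 5.61 bases on LN-521 and 154 ± 1.82 bases on the mixed coating (SD, n = 3 each), so a modest count became a high TPM.

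**Figure D1:**
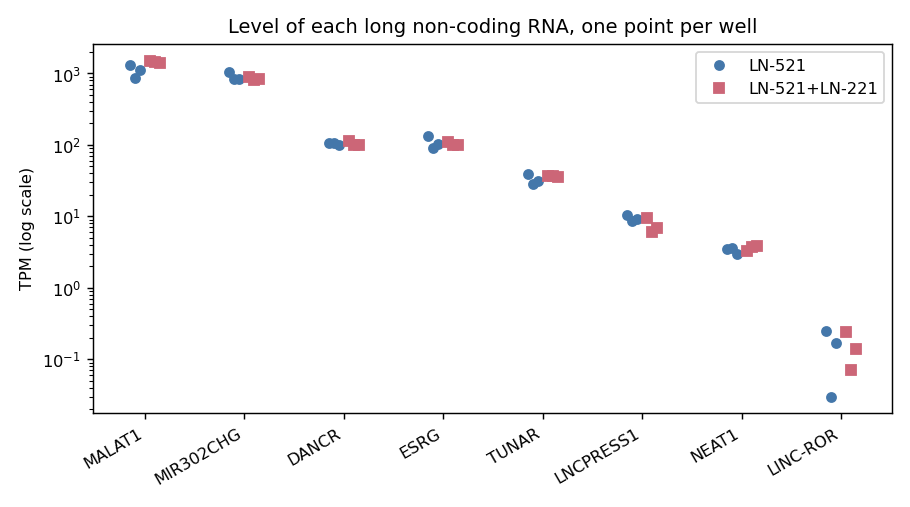
The authors' TPM values of the 8 RNAs on a log axis, 1 point per well, circles for LN-521 and squares for LN-521+LN-221. From left to right the RNAs run from the highest median, 1372 TPM for MALAT1, to the lowest, 0.155 TPM for LINC-ROR.

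Of the 8 RNAs, NEAT1 and MALAT1 were higher on the mixed coating and the other 6 did not pass the test. The comparison used edgeR's quasi-likelihood test with Benjamini-Hochberg adjustment over all 17608 genes and a threshold of 0.05, and fold changes set the mixed coating over LN-521. With 2 of 8 called, both higher, the background was 446 of 17608 genes called in either direction (2.53%) and 246 called higher (1.4%). Among 1950 GENCODE long non-coding RNA genes, 22 were called (1.13%), 18 higher and 4 lower. The median log2 fold change of the 8 RNAs was -0.00459, that of the 1950 genes -0.00528 and that of all genes tested -0.00114. The CPM of the coatings did not overlap for 4 of the 8, against 19.9% of all genes tested, and 4 of the 8 had an unadjusted p under 0.05, against 2561 of 17608 genes.

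**Figure D2:**
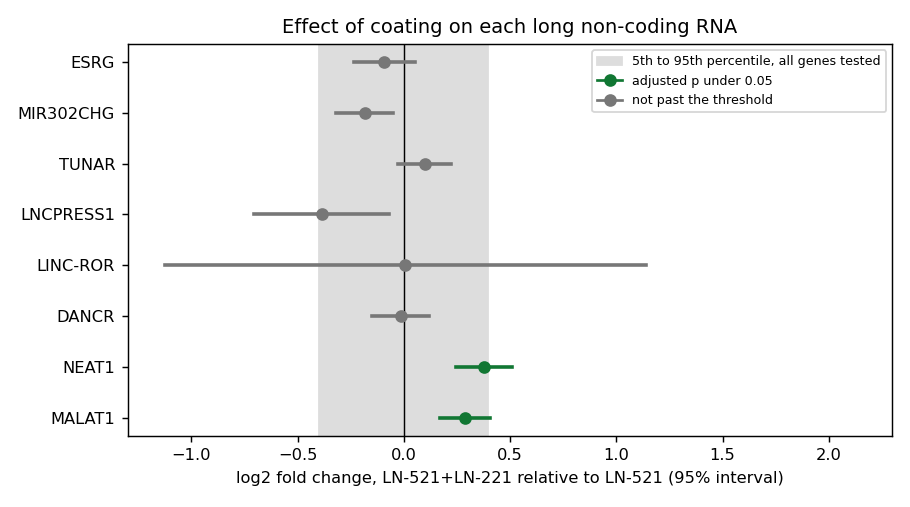
Log2 fold change of each RNA, mixed coating over LN-521, with its 95% interval from the edgeR fit, over a grey band from the 5th to the 95th percentile of all genes tested (-0.40 to 0.39). NEAT1 and MALAT1, in green, passed the threshold, and the interval of LINC-ROR is the widest, from -1.13 to 1.14.

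The genes enriched in pluripotent cells come first. ESRG (ENSG00000265992), a transcript of an endogenous retrovirus of the HERVH family, lies within the span of CACNA2D3 on the other strand (GRCh38, chr3:54632122-54639857, minus strand), with no shared exon bases. Its CPM was 453, 362 and 390 on LN-521 and 382, 366 and 383 on the mixed coating. The groups overlapped, and replicate 1 on LN-521 was above all other wells. The log2 fold change was -0.09 ± 0.07 (standard error; adjusted p = 0.589 by edgeR), with a 95% interval from -0.24 to 0.05, and was 0.00405 without LN-521 replicate 1.

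MIR302CHG (ENSG00000249532) is annotated at chr4:112646476-112650051 on the minus strand of GRCh38, opposite LARP7, with 302 exon bases in common. Its CPM was 199, 177 and 170 on LN-521 and 159, 153 and 169 on the mixed coating. Each LN-521 well was above each LN-521+LN-221 well, the nearest pair being 170 and 169. The log2 fold change, -0.18 ± 0.06 (SE; 95% interval -0.32 to -0.05), did not pass after adjustment (edgeR unadjusted p = 0.00982, adjusted p = 0.165), and it was -0.12 without LN-521 replicate 1 (adjusted p = 0.193). LARP7, which encodes a 7SK-binding protein, had 1429 to 1585 counts per library and a log2 fold change of 0.12 ± 0.06 (standard error; adjusted p = 0.434 by edgeR). The library kit marks the strand, but whether the counting used it is not given in the sources used here, so reads of the shared exon bases may belong to either gene. The precursor genes MIR302A, MIR302C, MIR302D and MIR367 were at 0 counts in all 6 libraries, which allows at most 3 counts each, or 0.112 to 0.146 CPM by depth. These libraries do not measure the mature microRNAs printed above.

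The RefSeq promoter window around the annotated 5′ end of MIR302CHG, chr4:112650002-112650301 (GRCh38.p14, minus strand), is shown because the factors that bind such regions in stem cells, POU5F1 and its partners, were measured too. It holds 250 bases before the start and 50 after, and the capitals mark an octamer, ATGCAAAT, the motif read by POU-domain factors.
MIR302CHG promoter: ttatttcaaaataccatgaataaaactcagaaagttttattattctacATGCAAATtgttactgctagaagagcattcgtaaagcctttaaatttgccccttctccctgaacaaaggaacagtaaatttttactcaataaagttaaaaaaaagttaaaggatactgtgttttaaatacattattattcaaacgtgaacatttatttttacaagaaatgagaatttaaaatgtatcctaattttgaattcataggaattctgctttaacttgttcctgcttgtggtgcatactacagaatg
The octamer begins 202 bases before the start. RefSeq lists a second start of this gene, with the window chr4:112648654-112648953, which has no octamer and has a TATA box, TATAAA, that begins 29 bases before the start. On either strand the octamer occurs in 1.77% of 35116 RefSeq promoter windows of the same length, and the other 7 windows found, for 5 of the 8 genes in all, have no octamer. A match describes the letters only.

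TUNAR (ENSG00000250366), a conserved RNA required for mouse embryonic stem cell identity and neural differentiation, is at chr14:95876392-95925571 on the plus strand; GENCODE 29 lists it as protein coding. Its CPM was 129, 114 and 118 on LN-521 and 125, 131 and 131 on the mixed coating, and the groups overlapped. On the log2 scale the change was 0.10 ± 0.06 (standard error; adjusted p = 0.493 by edgeR; 95% interval -0.03 to 0.22). It was 0.15 without LN-521 replicate 1 (adjusted p = 0.083) and 0.06 without LN-521 replicate 2 (adjusted p = 0.666).

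LNCPRESS1 (ENSG00000232301), an RNA that holds the deacetylase SIRT6 away from chromatin in human embryonic stem cells, is at chr7:101299578-101301346 on the plus strand. It had 95 to 178 counts per library. Its CPM was 7.14, 6.69 and 6.94 on LN-521 and 6.55, 4.26 and 5.11 on the mixed coating. No wells overlapped between the coatings, but those on the mixed coating spread widely (coefficient of variation 21.8%, against 3.27% on LN-521). The log2 fold change of -0.39 ± 0.15 (SE; 95% interval -0.70 to -0.07) did not pass after adjustment (edgeR unadjusted p = 0.0193, adjusted p = 0.227). Without LN-521+LN-221 replicate 2, the lowest well, it was -0.25 (adjusted p = 0.660), and without replicate 1 of that coating, the highest of its 3 wells, it was -0.56 (adjusted p = 0.101). SIRT6 had a log2 fold change of 0.01 (edgeR adjusted p = 0.984).

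LINC-ROR (ENSG00000258609), a regulator of reprogramming that is proposed to sequester miR-145, is at chr18:57054558-57072119 on the minus strand. It was close to the limit of detection, with 16, 3 and 13 counts on LN-521 and 14, 5 and 10 on the mixed coating. The groups overlapped fully. Its log2 fold change was 0.01 ± 0.54 (standard error; adjusted p = 0.997 by edgeR), and its direction turned when libraries were scaled by total count alone. The 95% interval, from a fold of 0.458 to 2.20, does not exclude a 2-fold change in the upward or the downward direction.

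DANCR (ENSG00000226950) is at chr4:52712404-52720351 on the plus strand and carries SNORA26 and MIR4449 within its span. Its CPM was 79.0, 90.4 and 83.1 on LN-521 and 87.1, 80.0 and 82.9 on the mixed coating, so the groups overlapped. A log2 fold change of -0.02 ± 0.06 was estimated (standard error; adjusted p = 0.944 by edgeR), with a 95% interval of -0.15 to 0.12, and it was 0.01 on the TPM scale. Of 19 other long non-coding RNAs that host small nucleolar RNAs, such as GAS5 and SNHG1, none was called by edgeR or by DESeq2, and 2 had an unadjusted p under 0.05 (median log2 fold change -6.56e-05).

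**Figure D3:**
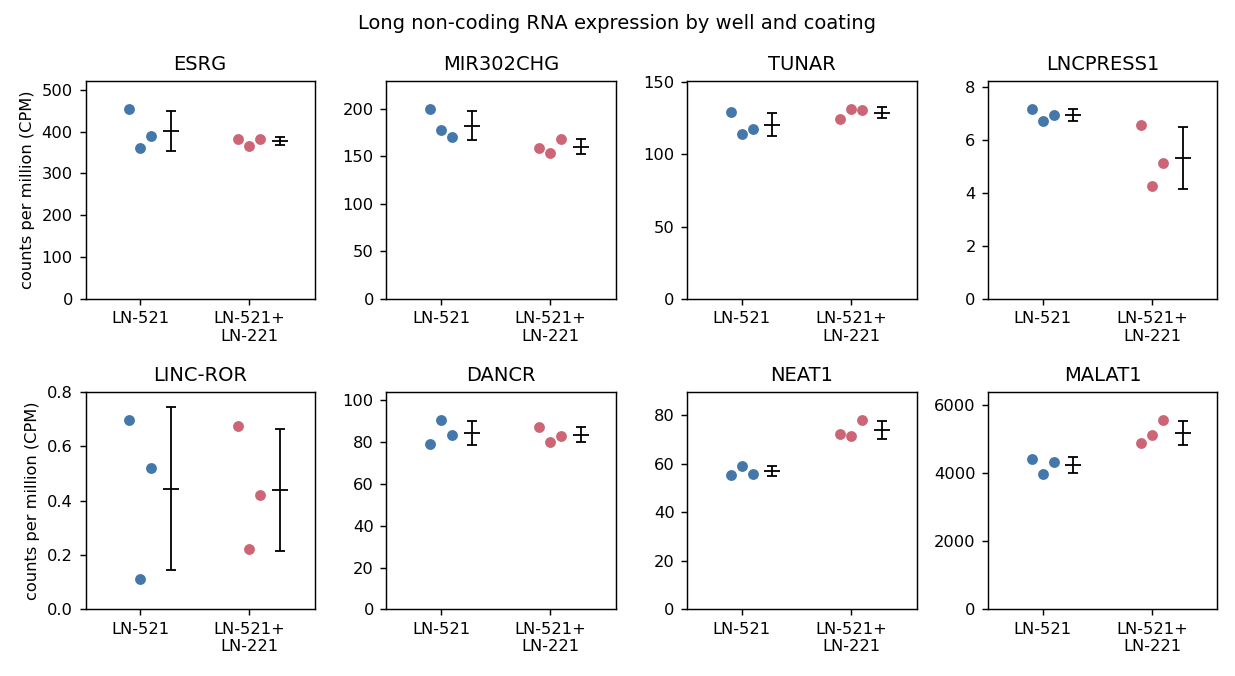
CPM of each RNA by coating, 1 point per well, with the mean and SD of 3 wells beside them in black; every axis starts at 0. For NEAT1 (55.5 to 59.2 against 71.4 to 78.0 CPM) and MALAT1 (3971 to 4414 against 4864 to 5547 CPM) all LN-521+LN-221 wells lie above all LN-521 wells.

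Among the LN-521 wells, replicate 1 had the highest CPM of 6 of the 8 RNAs and the lowest of the other 2, DANCR and NEAT1. The 5 RNAs enriched in stem cells, ESRG, MIR302CHG, TUNAR, LNCPRESS1 and LINC-ROR, summed to 790, 660 and 685 CPM on LN-521 and to 672, 655 and 688 CPM on the mixed coating. The sums overlapped between the coatings.

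NEAT1 (ENSG00000245532) rose on the mixed coating. The gene is unspliced in its main forms, at chr11:65422774-65445540 on the plus strand of GRCh38. Its CPM was 55.5, 59.2 and 55.9 on LN-521 and 72.1, 71.4 and 78.0 on the mixed coating, with all wells of the mixed coating above all wells of LN-521. The means were 56.9 ± 2.01 and 73.8 ± 3.60 CPM (SD, n = 3 each). The log2 fold change was 0.38 ± 0.06 (standard error; adjusted p = 0.00208 by edgeR), a 1.30-fold rise with a 95% interval of 1.18 to 1.42. It passed the threshold without any 1 of the 6 libraries.

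On the TPM scale NEAT1 did not differ detectably. It had 3.49, 3.60 and 2.94 TPM on LN-521 and 3.23, 3.72 and 3.80 TPM on the mixed coating, which overlap. The log2(TPM + 1) difference was 0.08 (limma adjusted p = 0.908). The 2 scales differ by a constant for each library and by the transcript length that the authors' estimates assign to the gene, since within a library a count divided by a TPM is proportional to the mean effective length of a gene's transcripts. How much each accounts for the lost call was not tested. This implied length of NEAT1 was 13.8, 12.0 and 14.6 kb on LN-521 and 18.9, 15.5 and 15.9 kb on the mixed coating. The groups did not overlap, and the mean rose from 13.5 ± 1.36 to 16.8 ± 1.84 kb (SD, n = 3 each), by 1.24-fold, while an exact two-sided permutation test gave p = 0.1, the smallest that 3 wells against 3 can reach. Of 11752 genes kept because they were well counted in every library, 482 (4.1%) were longer on the mixed coating without overlap. Of the same 11752 genes, 73 (0.621%), NEAT1 included, were longer on that coating by at least as much as NEAT1. Genes shorter by as much were not counted. The median absolute log2 difference over the 11752 genes was 0.03, and that of NEAT1 was 0.31.

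GENCODE 29 lists 8 NEAT1 transcripts of 512 to 22743 bases. The known forms are the short one, NEAT1-201 with 3441 bases, and the long one, NEAT1-202 with 22743 bases, whose 5′ end contains the short one. The implied lengths in all 6 wells lay between these values. Reads from the 5′ end fit both forms, so their division between them is an estimate by the authors' program, and 3 of the 6 NEAT1 counts were not whole numbers. The rise in counts and the longer implied length come from the same reads and are not independent measurements.

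**Figure D4:**
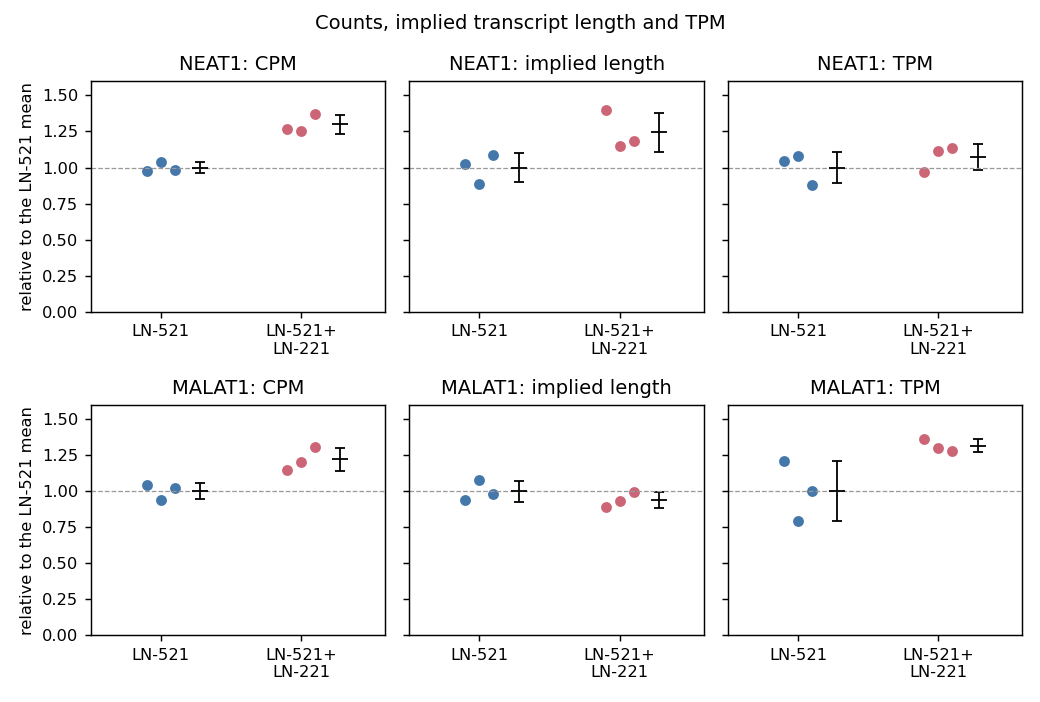
CPM, implied transcript length and TPM of NEAT1 (top) and MALAT1 (bottom), each relative to its mean on LN-521 (dashed line), 1 point per well with mean and SD in black. For NEAT1 the CPM ratio of 1.30 stands beside a length ratio of 1.24 and a TPM ratio of 1.07; for MALAT1 the ratios are 1.22, 0.939 and 1.32.

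Genes of the proteins that form paraspeckles with NEAT1 did not pass the test: of 20 such genes none was called by edgeR or by DESeq2 and 3 had an unadjusted p under 0.05. They had log2 fold changes from -0.08 to 0.14 and a median of 0.05, 15 of them above 0. NONO, a core paraspeckle protein, went from 925 ± 48.1 to 986 ± 11.8 CPM (SD, n = 3 each; log2 fold change 0.09, edgeR adjusted p = 0.436). SFPQ, its partner, had a log2 fold change of 0.05 (edgeR adjusted p = 0.803).

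MALAT1 (ENSG00000251562) also rose on the mixed coating. It lies near NEAT1, at chr11:65497688-65506516 on the plus strand of GRCh38. Its CPM was 4414, 3971 and 4324 on LN-521 and 4864, 5105 and 5547 on the mixed coating, again without overlap. It took 0.394% to 0.447% of all counts on LN-521 and 0.490% to 0.547% on the mixed coating. The means were 4236 ± 234 and 5172 ± 346 CPM (SD, n = 3 each), and the log2 fold change was 0.29 ± 0.06 (standard error; adjusted p = 0.00769 by edgeR), 1.22-fold with a 95% interval of 1.12 to 1.33. The call was lost when replicate 2 or replicate 3 of LN-521+LN-221 was left out, with log2 fold changes of 0.30 and 0.23 and adjusted p-values of 0.0638 and 0.0883.

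The TPM of MALAT1 was 1332, 873 and 1105 on LN-521 and 1506, 1436 and 1411 on the mixed coating. The wells did not overlap, but those on LN-521 varied widely, and the log2(TPM + 1) difference of 0.42 did not pass (limma adjusted p = 0.504). The lowest well, LN-521 replicate 2, was also the one in which abundant RNAs took the largest share of the TPM, 37.9%; the part of that share in the result was not tested, and with those RNAs removed the difference was 0.38 (limma adjusted p = 0.350). The implied length of MALAT1 was 3.07 ± 0.223 kb on LN-521 and 2.89 ± 0.162 kb on the mixed coating (SD, n = 3 each). These groups overlapped (exact two-sided permutation test, p = 0.5), and both means were below the 8708 bases of its longest annotated transcript. MALAT1 exceeded NEAT1 in CPM by 79.5, 67.1 and 77.4 times on LN-521 and by 67.4, 71.5 and 71.2 times on the mixed coating.

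RefSeq lists 2 start windows for MALAT1, shown because it is the abundant RNA that rose and because they differ in their motifs. The first is chr11:65497488-65497787 and the second chr11:65498795-65499094 (GRCh38.p14, plus strand, 250 bases before the start and 50 after). The capitals mark the GC box GGGCGG or its reverse complement in the first and the TATA box TATAAA in the second.
MALAT1 promoter, first start: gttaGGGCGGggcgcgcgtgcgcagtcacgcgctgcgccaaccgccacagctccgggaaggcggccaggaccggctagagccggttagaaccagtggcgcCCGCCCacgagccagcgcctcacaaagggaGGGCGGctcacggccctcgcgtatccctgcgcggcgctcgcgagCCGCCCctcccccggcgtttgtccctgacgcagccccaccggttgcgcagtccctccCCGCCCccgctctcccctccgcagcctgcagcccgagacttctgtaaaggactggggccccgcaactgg
MALAT1 promoter, second start: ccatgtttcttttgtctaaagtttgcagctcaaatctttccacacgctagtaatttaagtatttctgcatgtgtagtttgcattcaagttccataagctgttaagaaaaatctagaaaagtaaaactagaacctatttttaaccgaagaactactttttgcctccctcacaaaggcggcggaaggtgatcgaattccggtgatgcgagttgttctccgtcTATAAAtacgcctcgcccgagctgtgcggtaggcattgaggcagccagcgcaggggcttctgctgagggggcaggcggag
The first window is 73.7% G and C and has 5 GC boxes, a motif found in 45.0% of the RefSeq windows on either strand. The second is 46.0% G and C and has a TATA box that begins 30 bases before the start, a motif found in 11.5% of windows. The gene counts do not show which start was used.

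Of 17 genes for nuclear speckle proteins and for MALAT1 processing, none was called by edgeR or by DESeq2, 1 had an unadjusted p under 0.05, and the median log2 fold change was 0.04. SRRM2 and SON, which form the core of the speckle, had log2 fold changes of 0.03 and 0.05 (edgeR adjusted p = 0.870 and 0.759). None of 6 measured protein-coding genes near MALAT1 and NEAT1 was called by edgeR or DESeq2, and 0 had an unadjusted p under 0.05 (median 0.05). Among 13 other nuclear or abundant long non-coding RNAs, KCNQ1OT1 was called. This nuclear RNA, which silences imprinted genes, had 171, 166 and 147 CPM on LN-521 and 192, 197 and 209 CPM on the mixed coating, a log2 fold change of 0.31 ± 0.06 (standard error; adjusted p = 0.0101 by edgeR). The median of those 13 was 0.09.

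Values of other RNA classes were set beside NEAT1 and MALAT1. In GENCODE's sense-intronic class, to which ESRG is assigned, 143 genes were tested and the median log2 fold change was 0.13, with 63.6% above 0, 1 called higher and 0 lower. In the antisense class, that of MIR302CHG, the median over 666 genes was -0.05, with 41.9% above 0, 4 called higher and 1 lower. For lincRNAs, the class of NEAT1, MALAT1, LNCPRESS1 and LINC-ROR, the median over 707 genes was -0.02, with 9 called higher, NEAT1 and MALAT1 included, and 3 lower. The median was 0.01 over 186 processed transcripts, the class of DANCR, with 1 called higher and 0 lower. Over 14570 protein-coding genes, which include TUNAR, it was -0.00203, with 217 called higher and 191 lower. After MALAT1, SNHG14 and MIAT, the most abundant long non-coding entries by CPM were 3 unnamed lincRNA IDs beside 5.8S ribosomal RNA genes, whose counts were equal to each other. Each had 172, 217 and 93.6 CPM on LN-521 and 856, 573 and 1887 CPM on the mixed coating, without overlap (log2 fold change 2.78, edgeR adjusted p = 0.174). Their part in the rise of NEAT1 and MALAT1 was not tested. With the 6 lincRNA IDs that span or flank such genes left out, the log2 fold changes were 0.38 for NEAT1 and 0.29 for MALAT1. Leaving them out acts on other genes mainly through the scaling of the libraries, so it is not a test of that part.

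By centred log2 CPM over the 6 libraries, among 10033 genes with a symbol and at least 10 CPM, the genes nearest to NEAT1 were AKAP1, a mitochondrial anchor of protein kinase A, ASS1, argininosuccinate synthase, and TIAM1, a RAC exchange factor. Their root mean square differences were 0.02, 0.03 and 0.03. MALAT1 ranked 99th for NEAT1, at 0.09. The genes nearest to MALAT1 were CDON, STARD9 and SPATA6, at 0.04 each.

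Of the 3 protein-coding core factors of pluripotency, NANOG and POU5F1 were lower on the mixed coating and SOX2 did not pass. NANOG had 105, 97.3 and 118 CPM on LN-521 and 72.8, 63.6 and 57.0 CPM on the mixed coating, and fell by 0.73 ± 0.09 on the log2 scale (standard error; adjusted p = 1.65e-04 by edgeR). POU5F1 (OCT4) had 1068, 1302 and 1273 CPM on LN-521 and 927, 932 and 975 CPM on the mixed coating, and fell by 0.36 ± 0.06 (standard error; adjusted p = 0.00366 by edgeR). SOX2 had a log2 fold change of 0.07 (edgeR adjusted p = 0.577). No difference between these changes and those of the long non-coding RNAs was tested. Of 6 other stem cell long non-coding RNAs none was called by edgeR or by DESeq2 and 2 had an unadjusted p under 0.05; 5 had a log2 fold change below 0 and the median was -0.19.

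Of 14 tested genes named in the literature as miR-302 targets, 1 was called. CCND1, which encodes cyclin D1 and carries the cell into S phase, had 76.4, 70.6 and 61.5 CPM on LN-521 and 103, 114 and 114 CPM on the mixed coating, and rose by 0.67 ± 0.07 on the log2 scale (standard error; adjusted p = 3.68e-05 by edgeR). The other 13 did not pass, and the median of the list was -0.04. LEFTY2, an inhibitor of NODAL signalling, had the lowest value of that list, -1.18 (edgeR adjusted p = 0.167), at 6 to 62.8 counts per library. None of the 3 tested partners of LINC-ROR and TUNAR was called by edgeR or DESeq2, and 1 of them had an unadjusted p under 0.05 (median -0.09).

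**Figure D5:**
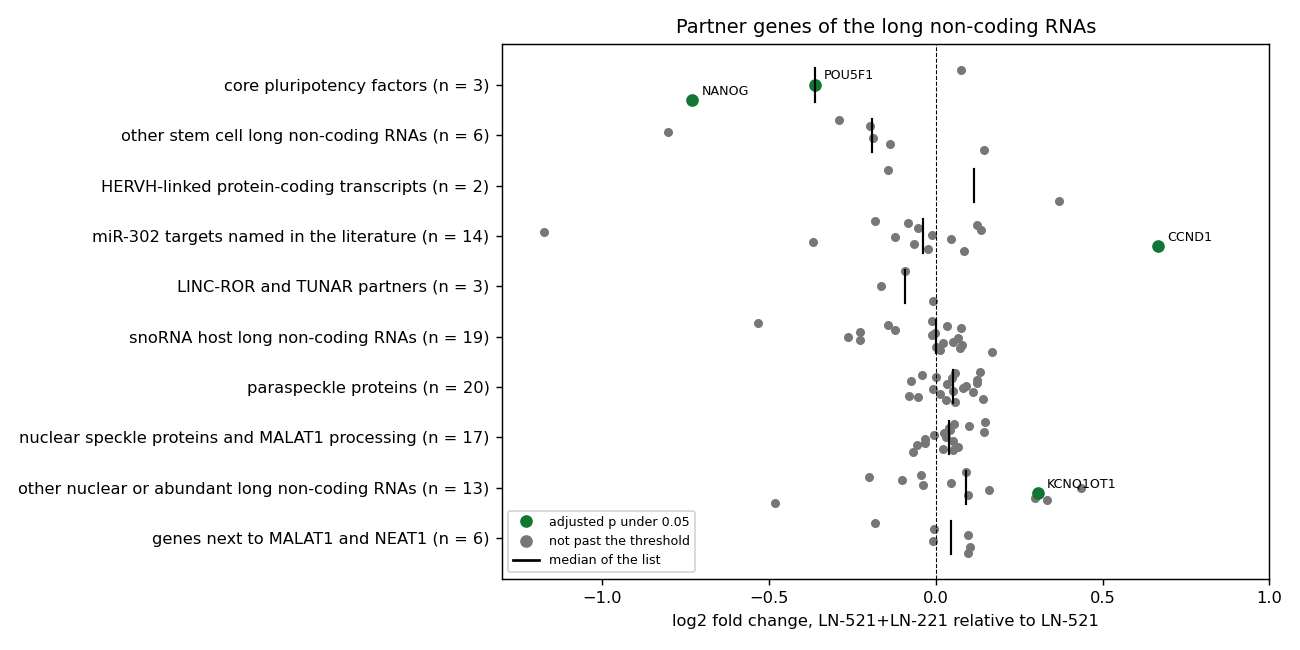
Log2 fold change of the partner genes by list, 1 point per gene tested, with the median of each list as a black bar and called genes in green. NANOG and POU5F1 lie below 0 and CCND1 and KCNQ1OT1 above it, and the paraspeckle and speckle genes stay between -0.08 and 0.15.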

How the data were processed

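Total RNA of 6 wells, 3 per coating, was made into stranded libraries and read in pairs of 150 bp, per the labels' protocols. Per the submitters' processing notes, the tools were cutadapt, STAR (version 2.5.2b) and RSEM (version 1.2.31), with build hg38; the annotation release and any use of strand in counting are not given in the sources used here. The authors deposited gene tables of estimated counts, of which 6.08% to 6.67% per library are not whole numbers, and of TPM. The sample sheet lists 1 sequencing batch.

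Counts were rounded, filtered with filterByExpr (minimum count 10), scaled by TMM (factors 0.988 to 1.01) and tested with the robust quasi-likelihood test of edgeR 4.0.16 (R 4.3.3), with the 6 libraries in 1 fit; p-values were adjusted by Benjamini-Hochberg over 17608 genes. CPM is rounded counts over TMM-scaled library sizes. The implied effective length is the count divided by the TPM, scaled to bases for each library on 561 genes with 1 transcript. At least 96.3% of them lay within 2% of the fitted line. Very short and very long transcripts were kept out of that fit. The implied lengths of MIR302CHG and NEAT1 lie below and above the fitted range, so the 96.3% does not cover them. Gene types, coordinates and overlaps came from GENCODE 29 (GRCh38). Symbols were found for 68.0% of the IDs, and 93.8% were in GENCODE 29.

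The members, the partner gene lists and the marker lists were chosen with earlier results of these data known. Named are the 8 members, called partner genes, 8 fixed genes (POU5F1, SOX2, NANOG, LARP7, NONO, SFPQ, SRRM2 and SON), the 3 genes nearest to each called member, and genes that overlap a member; SIRT6, GAS5, SNHG1, SNHG14, MIAT, LEFTY2, VGLL1, LUM, DCX, COL1A1 and the lincRNA IDs beside 5.8S genes were chosen after their values were seen. One list of partner genes is not reported here. Same-numbered wells did not deviate together. The scripts were tested on simulated data. Alternatives, with DESeq2 (version 1.42.0) and limma (version 3.58.1, log2(TPM + 1) and log2(TPM + 0.1), genes at 1 TPM or more in 3 libraries) among them, are given at the end.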

Additional observations from a re-analysis of the deposited data

How the results depend on the processing

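NEAT1 and MALAT1 passed the threshold with RLE factors, library size alone, both other filters, removal of abundant RNAs, DESeq2 and, as an alternative chosen after seeing the data, without the lincRNA IDs beside 5.8S genes. With limma on TPM values, 0 of the 8 RNAs passed: on log2(TPM + 1), NEAT1 was 0.0786 (adjusted p = 0.908) and MALAT1 0.42 (0.504); on log2(TPM + 0.1), 0.10 (0.899) and 0.42 (0.559); and on log2(TPM + 1) with abundant RNAs removed, also chosen after seeing the data, 0.0539 (0.915) and 0.38 (0.350). The cause of these lost calls was not tested. These 3 settings called 33, 16 and 27 genes in all. The count of all genes called was 221 at a threshold of 0.01, 725 at 0.1 and 718 with no filter beyond 1 count. Leaving out 1 library at a time gave 1 to 2 of the 8 called and 194 to 1179 of all genes, the highest without LN-521 replicate 1 and the lowest without LN-521+LN-221 replicate 3. Those fits gave 0.33 to 0.41 for NEAT1, 0.23 to 0.33 for MALAT1, 0.06 to 0.15 for TUNAR, -0.23 to -0.12 for MIR302CHG, -0.56 to -0.25 for LNCPRESS1, -0.159 to 0.00405 for ESRG (0.00405 without LN-521 replicate 1), -0.0590 to 0.0416 for DANCR (0.0416 without LN-521 replicate 2 and 0.01 without LN-521+LN-221 replicate 2) and -0.47 to 0.47 for LINC-ROR (-0.47 without LN-521 replicate 2 and -0.41 without LN-521+LN-221 replicate 1). DANCR also turned on the log2(TPM + 1) and log2(TPM + 0.1) scales (0.0115 and 0.0116), and LINC-ROR with library size alone (-0.00106), no filter beyond 1 count (-0.00863) and DESeq2 (-0.00453); the cause was not tested, and neither was called in any setting. LINC-ROR was too low to be tested with the filter of 1 CPM or on TPM. Same-numbered wells showed no pairing: their deviations correlated at 0.0473, -0.0223 and 0.00902. Adding a replicate block, 646 genes and 2 of the 8 RNAs passed, NEAT1 at 0.38 (adjusted p = 1.65e-04) and MALAT1 at 0.29 (1.09e-04). Depth limits LINC-ROR, at 3 to 16 counts.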
